A study of Mus musculus with 72 samples.

Results

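The testes of 12-week-old F1 males conceived by IVF were compared with those of naturals of the same age, with the columns of the count table chosen by the age, tissue and conception group in the library labels. The members are 10 samples, 5 IVF and 5 Natural, of the 72 in the series, and all genes counted in them were described. RNA was sequenced from testis that had been snap frozen, with a stranded mRNA kit. For adults the authors describe freezing of seminiferous tubules, and elsewhere RNA from a testis cross section. How much tissue from between the tubules the samples held is thus uncertain. F1 males of both groups had CF-1 dams and SJL/B6 sires that carried a GFP transgene in heterozygous form, so that littermates were not genetically identical. Naturals came from natural mating without superovulation or embryo transfer. For the IVF group, CF-1 eggs were obtained after eCG and hCG, fertilised with capacitated sperm in HTF medium, cultured in KSOM with amino acids under reduced oxygen to the blastocyst stage and transferred without surgery to pseudopregnant CF-1 females. Hormone stimulation, fertilisation in vitro, culture and transfer were always combined and cannot be told apart. Pups of both groups were delivered by caesarean section, at a later embryonic day in the IVF group than in naturals, and were fostered. This difference in delivery cannot be told apart from conception either. The animals of each group came from different litters. The labels name separate libraries in each group but do not tie a library to a litter, so litter cannot be entered in a test.

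The testis makes sperm inside the seminiferous tubules, where spermatogonia give rise to spermatocytes, spermatids and finally spermatozoa under the care of Sertoli cells. Leydig cells between the tubules make testosterone and the peptide hormone INSL3. Late germ cells build a flagellum from very large structural and motor proteins, among them the dynein heavy chains of the axoneme and the proteins of the fibrous sheath.

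Total counts per library ranged from 15352769 to 20347426 in naturals and from 15177518 to 18527000 in the IVF group, and the groups did not differ detectably in depth (log2 difference -0.10, p = 0.317 in an exact permutation test, two-sided). The libraries had the transcripts of a testis. Prm2, a protamine that packs sperm DNA, had 4146.2 to 5439.0 CPM (counts scaled to the normalised total of each library), and the steroidogenic enzyme gene Cyp17a1 had 391 to 914 CPM. Of 10 epididymal genes, 9 were too low to test, with at most 8 counts in a library, and the summed level of the 10 was 2.52 to 5.1 CPM in naturals and 0.904 to 4.58 CPM in the IVF group. Blood genes summed to 21.5 to 56.3 CPM in naturals and 25.9 to 48.1 CPM in the IVF group, with all tested blood genes overlapping between groups. Summed levels of lists are scaled to the total counts of a library, without normalisation. In bulk tissue, a change in the number of cells of a type and a change in RNA per cell cannot be told apart.

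Of 20113 genes tested, 40 were differentially expressed genes (DEGs), defined by an adjusted p under 0.05 together with more than a 1.5-fold change. They were 0.199% of the genes tested. Of these, 35 (0.174%) were downregulated and 5 (0.0249%) were upregulated in the IVF group. Without the fold limit, 150 genes (0.746%) had an adjusted p under 0.05, 135 lower (0.671%) and 15 higher (0.0746%) in the IVF group, although 51.9% of all tested genes had a fold change above 0 and the median log2 fold change of all genes was 0.01. An unadjusted p under 0.05 was found for 2597 genes (12.9%). The downregulated DEGs had log2 fold changes of -1.82 to -0.59 with a median of -0.89, and mean levels in naturals of 2.37 to 631 CPM. The groups did not overlap in 31 of the 40 DEGs, against 3.07% of all genes tested. All IVF libraries were below all naturals in 26 of the 35 downregulated DEGs, against 2.15%. The DEGs were chosen by a test on these same libraries, which favours separated groups, so these counts are no independent support. The DEG count depended on single libraries. It was 90 without IVF 1, 6 without IVF 2, 8 without IVF 4 and 15 without IVF 5, and it was 8 without Natural 3, 9 without Natural 4 and 11 without Natural 5. Fsip2, Gm32750, Dchs1 and Gm30028 were the 4 DEGs called whichever library was left out.

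Fsip2, which encodes a large protein that interacts with the fibrous sheath of the sperm tail, was the gene with the smallest adjusted p. Its level was 592, 625, 623, 701 and 612 CPM in naturals and 469, 372, 409, 352 and 402 CPM in the IVF group. Every IVF library lay below every natural one. The log2 fold change was -0.65 (SE 0.07, adjusted p = 0.000345). Fsip2 lies on chromosome 2, from 82943634 to 83008937 in GRCm38, and its longest annotated transcript has 21116 bases. Dchs1, on chromosome 7 from 105752989 to 105788355, encodes a cadherin of planar cell polarity. Its levels were 25.4, 37.1, 47.1, 44.3 and 43.5 CPM in naturals and 21.6, 17.3, 21, 19.3 and 19.4 CPM in the IVF group, without overlap, although Natural 1 lay closer to the IVF libraries than to the other naturals. The log2 fold change of Dchs1 was -1.0 (SE 0.14, adjusted p = 0.00304).

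Usf3, a helix-loop-helix transcription factor gene on chromosome 16, fell by 0.62 on the log2 scale (SE 0.11, adjusted p = 0.0135). It was at 33.9, 35.5, 38.1, 36.4 and 32.8 CPM in naturals and at 29.4, 18.3, 20.4, 21.6 and 25.1 CPM in the IVF group. IVF 1 was again the highest IVF library. Zbed6 encodes a transcriptional repressor that arose from a transposon and lies on chromosome 1, from 133655879 to 133660885, within the span of the host gene Zc3h11a. Zbed6 was at 21.6, 22.8, 21.2, 26.7 and 23.2 CPM in naturals and at 19.9, 10.4, 8.44, 10.2 and 10.4 CPM in the IVF group. IVF 2 to IVF 5 were at similar low levels, whereas IVF 1 was just below the lowest natural one. The log2 fold change was -0.96 (SE 0.19, adjusted p = 0.0304), and Zbed6 was called in 2 of the 10 fits that left out a library. Zc3h11a itself had a log2 fold change of 0.08 (SE 0.06, adjusted p = 0.673).

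Other downregulated DEGs had varied roles. Nfat5, the transcription factor of the response to osmotic stress, fell by 0.63 (SE 0.12, adjusted p = 0.0298), with IVF 1 at 81.1 CPM and within the natural range. Wnk3, a kinase that controls cation chloride cotransporters, fell by 0.59, and Asb4, a substrate receptor of a ubiquitin ligase that is imprinted in the mouse, fell by 0.61. Alg10b, a glucosyltransferase of N-glycan assembly, fell by 0.67, and Nbeal1, a BEACH domain protein gene, fell by 0.63 (adjusted p = 0.0243). Col4a3, a chain of basement membrane collagen, fell by 0.72 (SE 0.16, adjusted p = 0.0337). The DEG with the lowest log2 fold change was Vwc2, a secreted modulator of BMP signalling, at a mean of 2.37 CPM in naturals and 0.67 CPM in the IVF group (log2 fold change -1.82, SE 0.35, adjusted p = 0.0191). In the 35 downregulated DEGs, IVF 1 was the highest IVF library 24 times and Natural 1 was the lowest natural library 15 times. These counts were not set against those of all genes tested, so they need not be particular to the DEGs.

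The downregulated DEGs comprised 19 protein-coding genes and 11 lncRNA genes by their RefSeq type. Over all genes tested, 17.5% were lncRNA genes. Gm32750, a predicted lncRNA gene on chromosome 19, was at 9.05, 8.85, 9.66, 7.17 and 9.21 CPM in naturals and at 4.30, 3.80, 3.15, 4.64 and 3.09 CPM in the IVF group. The groups were well separated, and the log2 fold change was -1.21 (SE 0.17, adjusted p = 0.00304). Gm30028, another predicted lncRNA gene, on chromosome 5, fell by 0.99 (SE 0.14, adjusted p = 0.00304). Of the 35 DEGs found in the RefSeq table, 26 have a span that overlaps another gene, Gm32750 that of Tmc1 and D830031N03Rik that of Macf1. How the counting treated strand is not given in the sources used here, so that counts of overlapping genes are uncertain.

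The 5 upregulated DEGs were Grik3, Marc2, Cuta and the predicted lncRNA genes Gm33922 and Gm30893, and the groups overlapped in none of them. Grik3, a kainate receptor subunit on chromosome 4, was at 1.48, 0.91, 2.24, 1.75 and 1.24 CPM in naturals and at 4.56, 4.52, 4.62, 3.36 and 2.56 CPM in the IVF group. Its level was low throughout, with 18 counts in the lowest library, and the log2 fold change was 1.36 (SE 0.27, adjusted p = 0.0256). Marc2, a mitochondrial amidoxime reductase gene, rose by 0.68 (SE 0.15, adjusted p = 0.0425), with a wider spread in the IVF group (26.9 ± 7.21 CPM, SD, n = 5) than in naturals (16.7 ± 1.34 CPM, SD, n = 5). Cuta rose by 0.65 (SE 0.14, adjusted p = 0.0334). Each of these 5 was called in 5 or fewer of the 10 fits without a library.

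**Figure D1:**
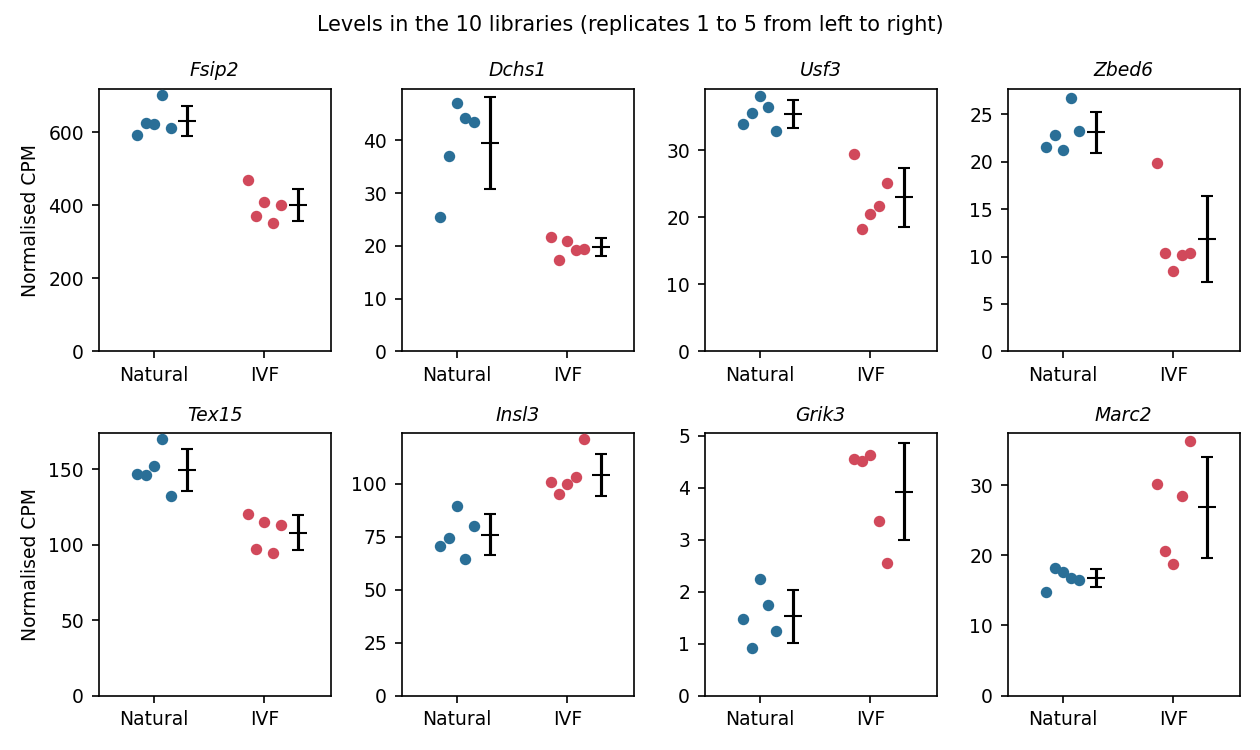
Normalised CPM (linear axes from 0) of 8 genes in each library, with naturals in blue and the IVF group in red, replicates 1 to 5 from left to right, and the mean ± SD (n = 5) beside the points. Fsip2, Dchs1, Usf3, Zbed6 and Tex15 were lower in all 5 IVF libraries, Insl3, Grik3 and Marc2 were higher in all 5, and IVF 1 stood near the naturals for Zbed6.

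The genes called lower in the IVF group at an adjusted p under 0.05, without the fold limit, had long transcripts. A transcript length, that of the longest GENCODE transcript of a gene, was found for 87.5% of the genes tested, and its median was 3014 bases. For the 122 lower genes with a length the median was 9931 bases, and for the 14 higher genes with a length it was 1494 bases. For the DEGs alone it was 5757.5 bases in the 24 downregulated and 3498 bases in the 4 upregulated ones with a length. When the genes were divided into deciles by length, 95 of the 122 lower genes (77.9%) were in the longest decile, of 6519 bases or more. The relation with length was not limited to the genes called. The median log2 fold change was 0.11 in the shortest decile, 0.03 in the fifth and -0.15 in the longest, where 76.7% of genes were lower in the IVF group, against 32.7% in the shortest. Across 17589 genes within these libraries, Spearman's rho of fold change with length was -0.32 and with GC content 0.16; genes are not independent replicates.

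**Figure D2:**
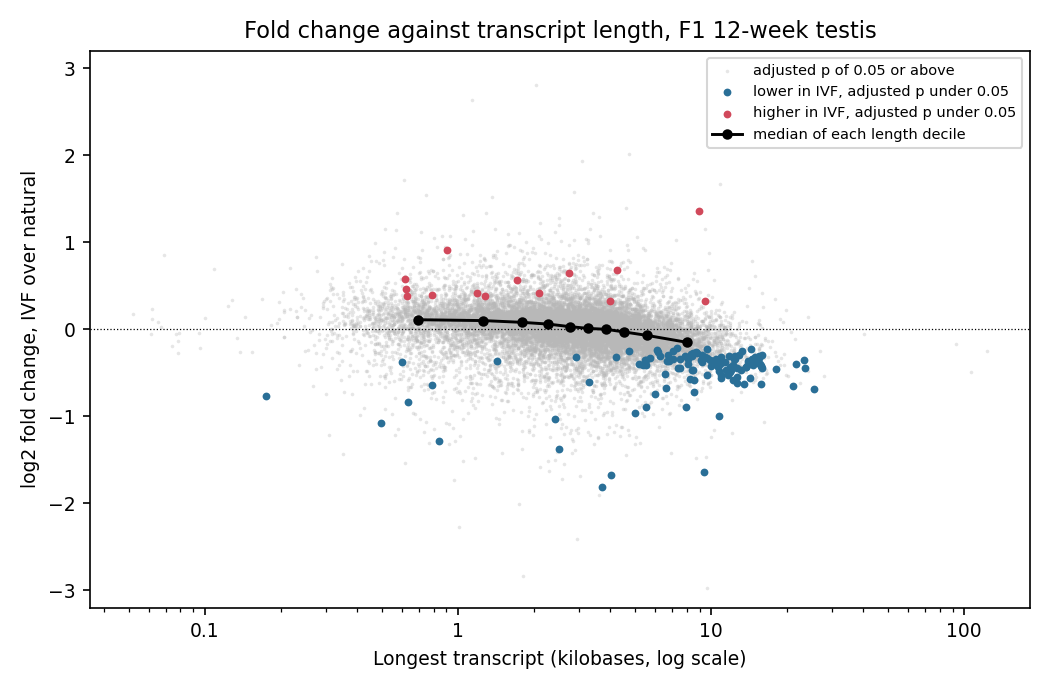
Log2 fold change of each tested gene against the length of its longest transcript (log axis), with genes of adjusted p under 0.05 in blue (lower in IVF) and red (higher in IVF) and black points for the median of each length decile. The black line falls from 0.11 to -0.15, and most blue points lie beyond 6519 bases.

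The direction of the slope on length separated the groups. The slope of log2 CPM, relative to the mean of the 10 libraries, per doubling of length was 0.00427, 0.0236, 0.0525, 0.0303 and 0.0286 in naturals and -0.0177, -0.0333, -0.0200, -0.0525 and -0.0158 in the IVF group. All naturals were above 0 and all IVF libraries below it. The difference was -0.0557 (two-sided exact permutation test, p = 0.00794, the smallest p that 5 against 5 allows, and 0.0238 after adjustment over the 6 slopes on length or GC content that were compared). The test was chosen after the data were seen. At 39 weeks the slopes ranged from -0.127 to 0.153 in naturals and from -0.0858 to 0.138 in the IVF group (exact permutation p = 0.914), and in F2 testes from -0.0351 to 0.015 and from -0.0247 to 0.0198 (exact permutation p = 0.759). The groups overlapped in both. The slope on GC content (log2 CPM per percentage point) did separate the groups at 39 weeks, where it was -0.000744 to 0.0257 in naturals and -0.0198 to -0.00174 in the IVF group (exact permutation p = 0.00476, adjusted p = 0.0238). Total counts at 39 weeks did not overlap either, at 11438213 to 12705316 in naturals and 14033176 to 23318391 in the IVF group. The part of depth in the slopes was not tested. At 12 weeks the GC slopes overlapped (exact permutation p = 0.0556, adjusted p = 0.111), as they did in F2 (exact permutation p = 0.107, adjusted p = 0.161). RNA integrity of the samples was not analysed here, and its part in the relation with length was not tested. Whether the difference in slope itself differed between the sets was not tested.

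**Figure D3:**
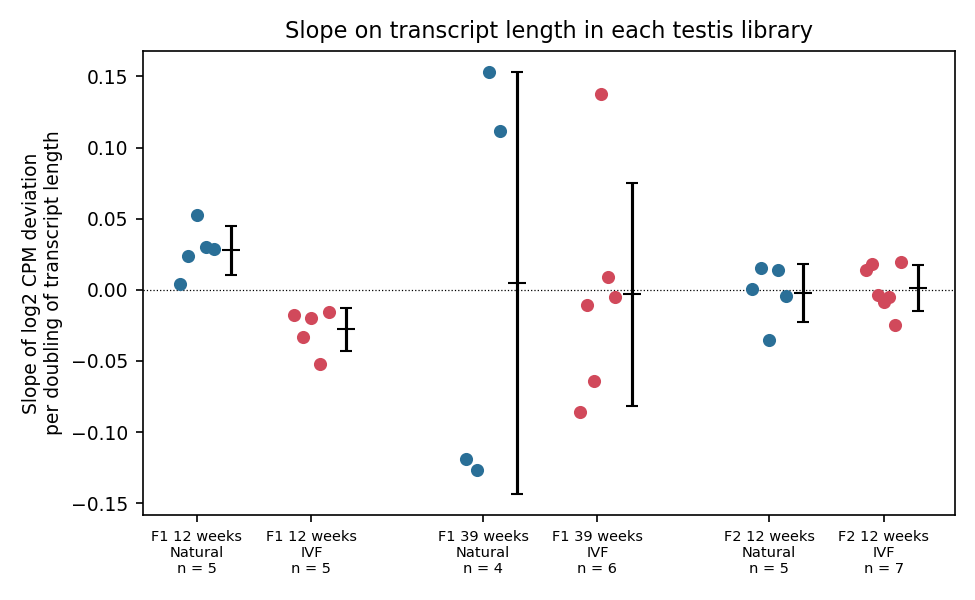
Slope of log2 CPM, relative to the mean of the libraries of its own set, per doubling of transcript length, for each testis library, with the mean ± SD of each group. At 12 weeks in F1 the naturals lie above 0 and the IVF libraries below it, whereas the groups overlap at 39 weeks and in F2.

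When a smooth trend of expression on length was removed from each library, 10 genes kept an adjusted p under 0.05 instead of 150 (0.0497% of the genes tested), and 4 were DEGs instead of 40. All 10 were among the 150. Fsip2 had a log2 fold change of -0.38 (adjusted p = 0.00374), Dchs1 of -0.82 (adjusted p = 0.00903) and Usp34, a deubiquitinase gene, of -0.39 (adjusted p = 0.0254). The genes that were higher were Grik3 (1.52, adjusted p = 0.0467), the superoxide dismutase gene Sod1 (0.34, adjusted p = 0.0448) and the cochaperone gene Dnajb14 (0.48, adjusted p = 0.00374). By their longest annotated transcript, these 6 genes, Sod1 included, all had 3546 bases or more. That transcript need not be the main one in testis, so the trend removed from a gene can be the wrong one. Of the other 4 genes, Gm32750, Gm30028, LOC102635990 and LOC102638085, no length was found, so that no trend was removed from them. Zbed6 had nearly the same fold change as before (-0.91) but an adjusted p of 0.0923. With the trend of GC content removed in place of length, 155 genes were called.

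Motor proteins of cilia and flagella were among the long genes that fell. All 15 axonemal dynein heavy chain genes, chosen by their symbols after the data were seen, were tested, and 9 fell with none rising, with log2 fold changes of -0.47 to -0.30 in those called. Over all genes tested 0.671% fell, and in the longest decile 95 of 1758 genes did. The median of the 15 was -0.34, beside 0.01 for all genes. Dnah17, the heavy chain gene with the smallest standard error, was at 842, 858, 935, 867 and 815 CPM in naturals and at 683, 682, 734, 690 and 673 CPM in the IVF group, without overlap (log2 fold change -0.32, SE 0.05, adjusted p = 0.00717). Dnah7a, Dnah7b and Dnah7c are near copies, so that their reads may be split uncertainly. The 5 intermediate and light chain genes, which are partners of the heavy chains in the same arms, had a median length of 2510 bases against 13696 for the heavy chains and a median log2 fold change of -0.08, and none was called. With the length trend removed, the medians were close, at -0.14 for the heavy chains and -0.11 for the intermediate and light chains, and no gene of either family was called.

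Dync2h1, the heavy chain of the dynein that carries cargo back along the axoneme, was at 191, 184, 198, 219 and 183 CPM in naturals and at 145, 121, 134, 136 and 128 CPM in the IVF group. The groups did not overlap (log2 fold change -0.56, SE 0.07, adjusted p = 0.00101), and with the length trend removed it was -0.34 (adjusted p = 0.0561). Hydin, a protein of the central pair of the axoneme, fell by 0.42 (SE 0.06, adjusted p = 0.00395). Large ubiquitin ligases were likewise picked after their values were seen. Of 28 HECT and UBR ligase genes, 7 fell and none rose, beside the 0.671% of all genes that fell, with Huwe1 lower by 0.40 (SE 0.07, adjusted p = 0.00977). The median was -0.19, or -0.06 with the length trend removed, and none of the 28 was then called. Genes with short transcripts lay on the other side. The median log2 fold change was 0.20 in 82 cytosolic ribosomal protein genes, 80 of them above 0, with 1 called, and 0.18 in 76 respiratory chain genes, with none called. With the length trend removed these medians were 0.13 and 0.12, beside 0.03 in the shortest decile. Then 77 of the 82 and 69 of the 76 genes were above 0, beside 10496 of 20113 genes tested, and none was called. Before the trend was removed, 51.9% of all genes tested were above 0 and 0.746% were called.

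**Figure D4:**
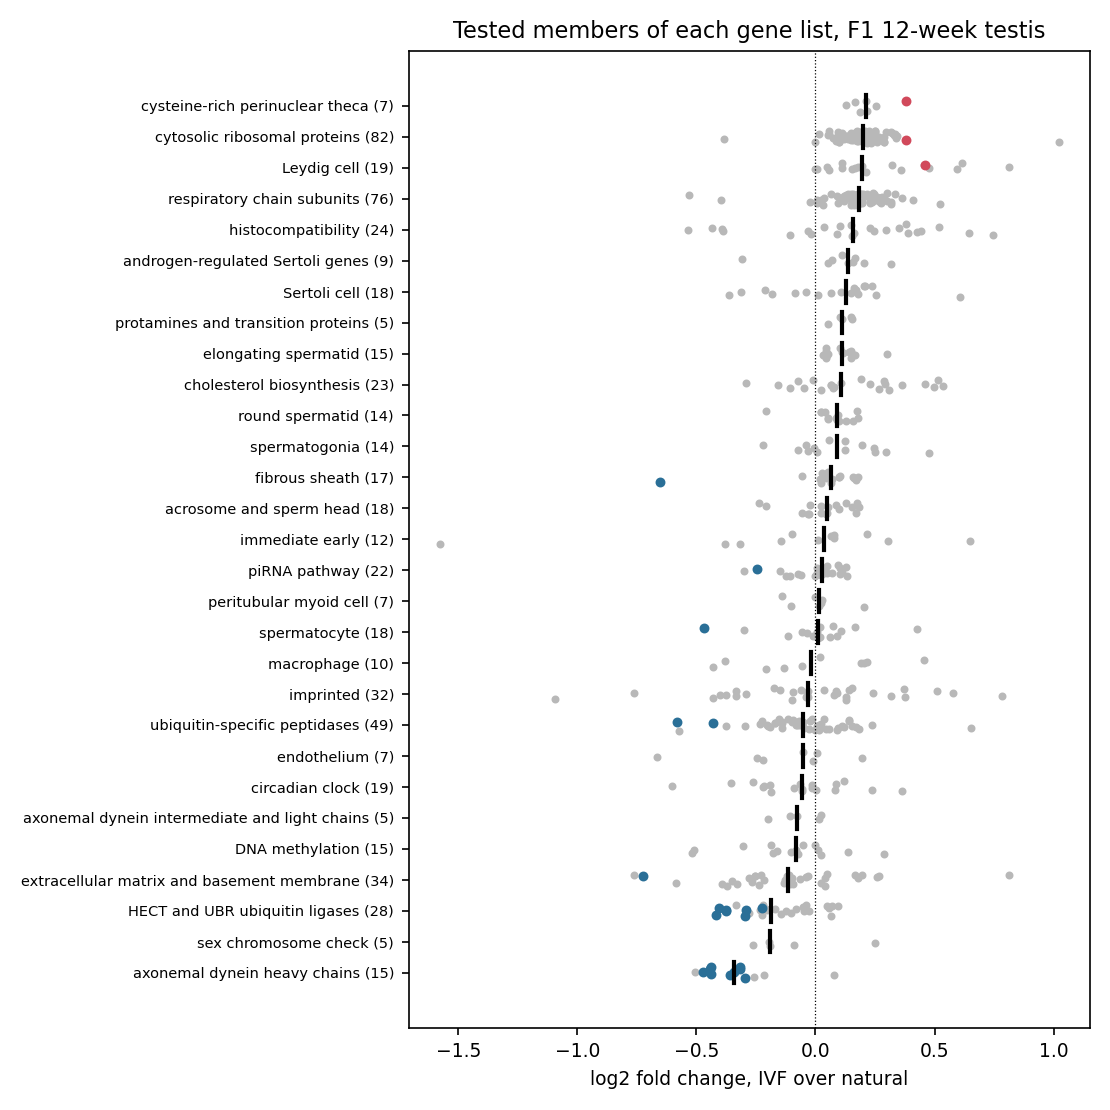
Log2 fold change of each tested member of the gene lists with 5 or more genes tested, ordered by the median (black bar), with the number tested in brackets, called genes in blue (lower in IVF) or red (higher in IVF) and all others in grey. Of the lists drawn, the axonemal dynein heavy chains have the lowest median, -0.34, and the Leydig cell, ribosomal protein and respiratory chain lists lie above 0.

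In the lists for germ cells, single genes passed the test. Of all genes tested, 0.746% were called and 51.9% had a log2 fold change above 0. The lists were not tested as sets. Tex15, needed for meiotic recombination and transposon silencing, was the 1 of 18 spermatocyte genes called. It was at 147, 146, 152, 170 and 132 CPM in naturals and at 120, 96.8, 115, 94.7 and 113 CPM in the IVF group, and it fell by 0.47 (SE 0.08, adjusted p = 0.0111). Tdrd6, a scaffold of the chromatoid body, was the 1 of 22 genes of the piRNA pathway called and fell by 0.25 (SE 0.05, adjusted p = 0.031). With the length trend removed, Tex15 had a log2 fold change of -0.33 (adjusted p = 0.103) and Tdrd6 of -0.14 (adjusted p = 0.413). Fsip2 was the only gene called among 17 of the fibrous sheath, of which 15 were above 0. The main scaffold of that sheath, Akap4, had a log2 fold change of 0.04 (SE 0.08, adjusted p = 0.858). All 15 genes of elongating spermatids were above 0, with a median of 0.11 and none called, and the median was 0.04 with the length trend removed. None of 14 spermatogonial and 14 round spermatid genes was called. In these 2 lists the medians were both 0.09.

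Among 19 Leydig cell genes, 18 had a log2 fold change above 0, beside 51.9% of all genes tested, and the median was 0.19. Beside 0.0746% of all genes tested, 1 gene of the list rose. That gene was Insl3, whose hormone drives testicular descent and marks Leydig cell function in the adult. It was at 70.6, 74.5, 89.7, 64.4 and 80.2 CPM in naturals and at 101, 95.3, 100, 103 and 121 CPM in the IVF group. All IVF libraries lay above the naturals (log2 fold change 0.46, SE 0.09, adjusted p = 0.0197). With the length trend removed, Insl3 had a log2 fold change of 0.38 (adjusted p = 0.156), and the median of the list was 0.21. Genes of testosterone synthesis varied more from library to library. Star, which carries cholesterol into mitochondria, was at 79.8, 148, 124, 123 and 90.0 CPM in naturals and at 63.1, 144, 139, 88.3 and 152 CPM in the IVF group, with complete overlap (log2 fold change 0.06, SE 0.28, adjusted p = 0.960).

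The enzymes downstream of Star were likewise not called. Cyp11a1, which cleaves the side chain of cholesterol, had a log2 fold change of 0.45 (SE 0.24, adjusted p = 0.486), Cyp17a1 of 0.36 (SE 0.25, adjusted p = 0.608) and Hsd3b6 of 0.81 (SE 0.41, adjusted p = 0.463). The summed level of the 19 genes was 1075.0 to 1597.0 CPM in naturals and 1179.5 to 2049.7 CPM in the IVF group, with IVF 2 and IVF 5 above all naturals. Of 23 genes of cholesterol biosynthesis, 17 were above 0 with a median of 0.11 and none was called. Of all genes tested, 51.9% were above 0 and 0.746% were called. None of the 9 androgen-regulated genes of Sertoli cells and none of 18 Sertoli cell genes tested was called.

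Of 34 genes of the extracellular matrix and basement membrane, Col4a3 alone was called, and the median was -0.11, or -0.05 with the length trend removed. The list had a median length of 5988 bases. Col1a1, the main fibrillar collagen chain, had a log2 fold change of -0.39 (SE 0.14, adjusted p = 0.223), and Vcam1, an adhesion molecule, of 0.19 (SE 0.34, adjusted p = 0.862). No gene was called among 32 imprinted, 15 DNA methylation, 19 circadian clock, 12 immediate early, 24 histocompatibility, 7 peritubular myoid, 7 endothelial, 10 macrophage, 4 blood, 2 adipose, 1 epididymal and 5 sex chromosome genes tested. Of all genes tested only 0.746% were called, so a list of such a size would seldom hold a called gene. The absence of calls does not show that these genes were unchanged. The list of imprinted genes did not hold Asb4, which was a downregulated DEG. Per2, a component of the clock, had a log2 fold change of -0.60 (SE 0.17, adjusted p = 0.117).

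The IVF libraries differed more among themselves than did those of naturals. The distance of a library was taken as the root mean square, over all tested genes, of its log2 CPM minus the mean of the other 4 of its group. It was 0.443, 0.426, 0.448, 0.436 and 0.446 in naturals and 0.485, 0.495, 0.525, 0.468 and 0.490 in the IVF group. All IVF libraries were above all naturals, with a difference of 0.0528 (two-sided exact permutation test, p = 0.00794, the smallest possible). The 5 distances of a group share libraries and are thus not independent. With a library left out, the difference ranged from 0.0338 without Natural 2 (exact permutation p = 0.0238) to 0.0771 without IVF 4 (exact permutation p = 0.00794), where distances in the smaller group were taken from the mean of 3 other libraries.

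The same question was asked of F1 testes at 39 weeks, with 4 naturals and 6 IVF males, and of 12-week testes of F2 males, 5 sired by naturals and 7 sired by IVF males, which had been mated with CF-1 females, in fits with an interaction of conception with age or generation. These sets are separate tables, and age, generation and the sequencing of each set cannot be told apart. F2 males of a group may share a sire or a litter, and the labels tie no F2 library to either. Each F2 library was thus treated as independent, here and in the slopes above, which can make F2 p-values and SEs too small. At 39 weeks depth separated the groups as well, so that depth and conception cannot be told apart there. The effect of IVF at 12 weeks differed from that at 39 weeks in 4 of 21513 genes (0.0186%), and none of these was a DEG at 12 weeks. Without any one of the 12-week libraries, the number was 0 or 1. For the 40 DEGs the smallest adjusted p of the interaction was 0.129. The 35 downregulated DEGs had log2 fold changes of -1.33 to 0.81 at 39 weeks, with a median of -0.13, and 25 of the 40 (62.5%) had the same sign as at 12 weeks, beside 47.2% of all tested genes.

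Between F1 and F2, the effect differed in 46 of 22062 genes (0.209%), 6 of them DEGs, namely Gm33922, Gm30893, Gm32750, Gm30028, Usf3 and Shisa7. The DEGs were chosen by the 12-week values that this test uses again, so their differences from F2 may be inflated. The number of genes that differed between F1 and F2 was 263 without IVF 1, 78 without IVF 5, 92 without Natural 1 and 30 without Natural 2. Usf3 had a log2 fold change of 0.02 (SE 0.09) in F2 and differed from F1 by -0.64 (SE 0.13, adjusted p = 0.0255). Grik3 was higher in IVF in F2 as well, by 1.10 (SE 0.23), and was at -0.45 (SE 0.40) at 39 weeks, but neither difference from 12 weeks passed the test (adjusted p = 0.795 and 0.196). Dchs1 was at -0.43 (SE 0.18) at 39 weeks and -0.59 (SE 0.21) in F2. Fsip2 was at 0.03 (SE 0.40) and -0.15 (SE 0.11), and its difference from 12 weeks was not called in either (adjusted p = 0.672 and 0.160). In F2, the downregulated DEGs had a median of -0.12, and 30 of the 40 (75%) had the same sign as at 12 weeks, beside 52.2% of all tested genes.

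**Figure D5:**
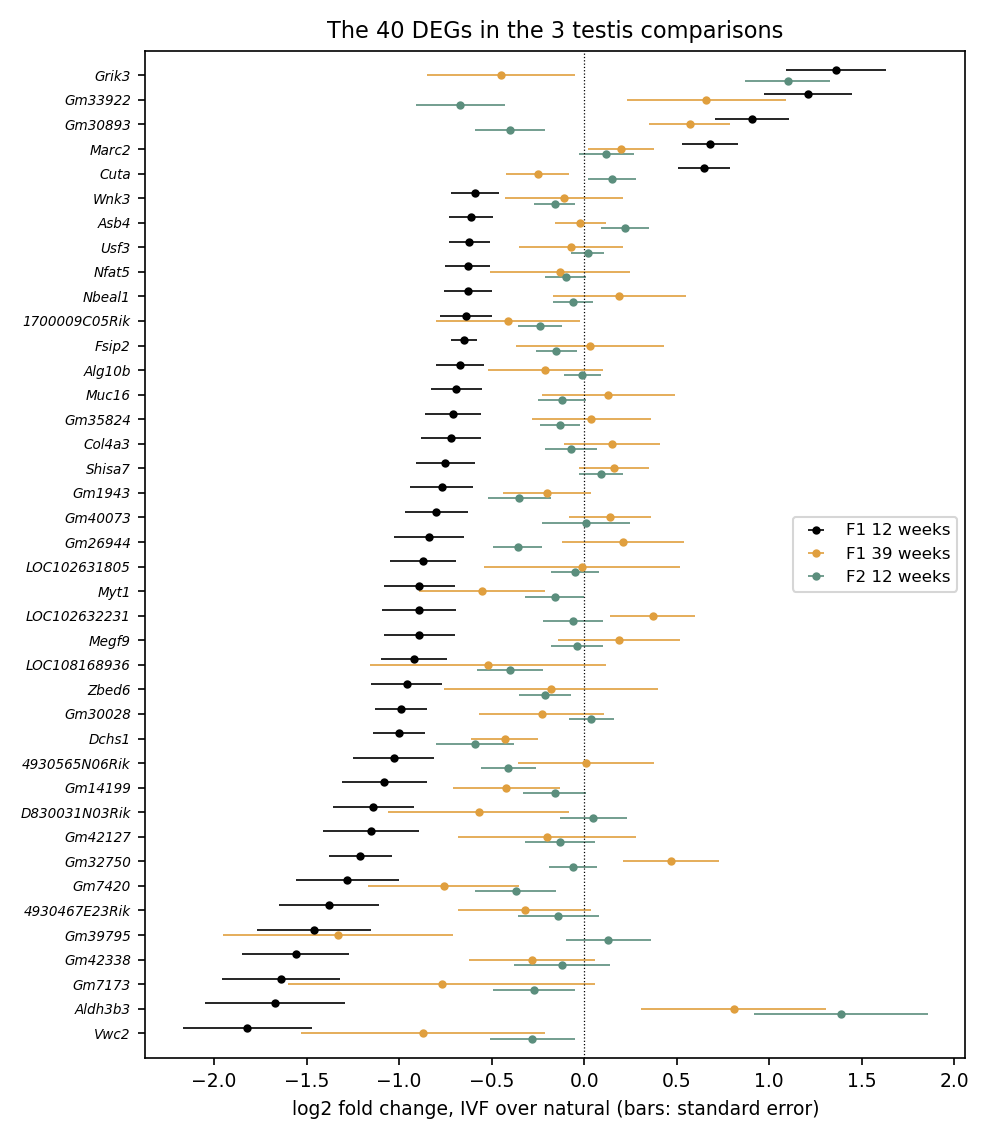
Log2 fold change (IVF over natural) with its standard error for the 40 DEGs in F1 at 12 weeks (black, the values that chose them), F1 at 39 weeks (orange) and F2 at 12 weeks (green). Most orange and green points lie closer to 0 than the black ones, Grik3 in F2 being at 1.10.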

How the data were processed

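The deposited values are whole-number counts per RefSeq gene in which the authors counted reads of 5 IVF and 5 natural testes, without normalization. Submitters' processing notes name mm10, Trimmomatic 0.32, STAR 2.3.0e, featureCounts 1.5.0 and DESeq2. Of counts from 1 to 20, 63.6% to 67.5% were even, as when both mates of a pair are counted, so a count is less than 1 independent fragment. Low counts were filtered by group and the rest fitted with robust quasi-likelihood tests in edgeR 4.0.16 (R 4.3.3) after TMM normalization, with adjusted p by Benjamini-Hochberg over all genes tested, and levels are TMM-normalised CPM. SE is of the log2 fold change. P-values measure the spread between the animals of each group. Length and GC content came from GENCODE M21 transcripts (splines of 5 degrees of freedom for trends), and positions from RefSeq on GRCm38.p6. Of 35976 symbols, 33506 were matched to RefSeq. Scripts were tested on simulated data of this comparison over 20113 genes, where 67 of 100 genes changed 2-fold and 88 of 100 changed 3-fold were recovered, with 6 unchanged genes called. Genes were named by a rule: all upregulated DEGs, the 20 downregulated DEGs of smallest adjusted p, called list members, the 3 highest genes of each list and 15 genes of interest, of which 1 is not reported here. Wnk3, Sod1, Dnajb14, Usp34, Huwe1, Hydin, Dync2h1, H2-Eb1, LOC102635990, LOC102638085 and the dynein and ligase families were chosen after their values were seen. Members and lists were chosen with earlier results of these data known. Alternatives were DESeq2 1.42.0, other filters and scalings, trends removed, a replicate block and each library left out.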

Additional observations from a re-analysis of the deposited data

Results flagged for a closer look

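Among 130 groups of 5 values examined for 1 library that stood apart, 11 were flagged, beside about 1 in 20 that chance gives. IVF 1 was the highest of its group for D830031N03Rik (8.47 CPM, the others at 3.41 to 4.29), Nfat5 (81.1 CPM, the others at 49.0 to 57.2) and Zbed6 (19.9 CPM, the others at 8.44 to 10.4), and it was the lowest for the mean log2 CPM of round spermatid genes (7.41, the others at 7.54 to 7.57). IVF 5 was the highest for Insl3 (121 CPM, the others at 95.3 to 103). Natural 5 was the lowest for Alg10b (9.95 CPM, the others at 11.1 to 11.5), and Natural 1 was the lowest for Col1a1 (16.8 CPM, the others at 23.1 to 25.2). In mean log2 CPM, IVF 2 was the highest for peritubular myoid genes (4.87, the others at 4.71 to 4.75), and IVF 3 was the highest for genes of the piRNA pathway (6.80, the others at 6.71 to 6.73). Natural 4 was the highest for immediate early genes (3.19, the others at 2.90 to 2.94), and Natural 3 was the lowest for elongating spermatid genes (10.27, the others at 10.35 to 10.38).

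The effect of IVF at 12 weeks in F1 differed from that in F2 by the interaction test in 7 named genes. All but Hsd3b6 were DEGs, chosen by 12-week values that this test uses again, so their differences may be inflated. The difference, F1 minus F2 on the log2 scale, was 1.89 for Gm33922 (adjusted p = 0.0134), 1.31 for Gm30893 (adjusted p = 0.0385), -1.15 for Gm32750 (adjusted p = 0.00726), -1.02 for Gm30028 (adjusted p = 0.00709), -0.64 for Usf3 (adjusted p = 0.0255) and -0.83 for Shisa7 (adjusted p = 0.0471). For the steroidogenic enzyme gene Hsd3b6 it was 3.29 (adjusted p = 0.00802), with a log2 fold change of 0.82 in F1 and -2.47 in F2.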

How the results depend on the processing

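Log2 fold changes of the 38 genes for which alternatives were run kept their direction in all of them, except those of Star (-0.06 to 0.22 with a library left out) and Vcam1 (-0.02 to 0.33), neither of them called. The DEG count of 40 was 73 with DESeq2's Wald test, 14 with a 2-fold limit, 150 with no fold limit, 4 with the length trend removed, 1 when in addition genes without a length were left out, 5 with length and GC trends removed, and 6 to 90 with a library left out. The 150 genes at an adjusted p under 0.05 became 419 with DESeq2, 10 with the length trend removed, 4 when in addition genes without a length were left out, 13 with length and GC trends removed, and 25 to 350 with a library left out. The 4 genes whose effect differed between 12 and 39 weeks (2554 at an unadjusted p under 0.05 in edgeR) became 303 with DESeq2, 0 with no filter on low counts, 40 with the length trend removed and 0 to 1 with a library left out. The 46 genes that differed between F1 and F2 became 338 with DESeq2, 75 with no filter and 30 to 263 with a library left out. The cause of these shifts was not tested. The distance and slope differences kept their direction and side of the threshold in every alternative run, at 0.0338 to 0.0771 for the distance with a library left out. The labels do not say that replicate numbers pair the animals, and deviations of libraries with the same number correlated at -0.05 to 0.03. Whether libraries with the same number were processed together was not tested. With the replicate block there were 8 DEGs, 22 genes at an adjusted p under 0.05, and 0 genes that differed between 12 and 39 weeks (2061 at an unadjusted p under 0.05; 303 by DESeq2 without the block). Genes at a few CPM rest on few counts in a library, which limits their fold changes.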

Other observations

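H2-Ab1 and H2-Eb1, chains of MHC class II on chromosome 17, were at a high level in the same 3 libraries, 1 of them a natural one. H2-Ab1 was at 70.0 CPM in Natural 1, 67.1 CPM in IVF 2 and 72.4 CPM in IVF 3, and between 4.88 and 12.6 CPM in the other 7 libraries. H2-Eb1 was at 18.0, 14.8 and 16.5 CPM in those 3 libraries and between 2.96 and 4.40 CPM in the other 7. H2-Aa, the partner chain of H2-Ab1, was at 1.63 to 4.49 CPM without such a split. Neither gene was called between IVF and naturals (adjusted p = 0.82 for H2-Ab1 and 0.878 for H2-Eb1). With levels so split within both groups, this does not show that the genes were unchanged.

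Nnat, an imprinted gene, was at 2.92, 4.10, 4.29, 3.78 and 3.09 CPM in naturals and at 2.61, 0.844, 1.34, 1.62 and 2.08 CPM in the IVF group, without overlap, but was not called (log2 fold change -1.09, SE 0.28, adjusted p = 0.0813). Meg3, an imprinted lncRNA gene, was at 16.0, 16.6 and 19.2 CPM in IVF 1, 2 and 5 and at 6.63 and 5.86 CPM in IVF 3 and 4, beside 5.20 to 8.70 CPM in naturals. Nnat, Meg3 and H2-Eb1 were picked because of their values.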
